A study of Mus musculus with 24 samples.

Results

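The comparison described here set the 4 S776A double mice against the 4 SCA1 S776A mice, 8 of the 24 cerebellar libraries of the series, 1 library per mouse at 6 weeks of age. The mice were chosen by their genotype label. Both genotypes carry the S776A change on the polyglutamine-expanded 154Q allele of Atxn1, and they differ in the unexpanded 2Q allele: it keeps its serine in SCA1 S776A mice (Atxn1 154Q[S776A]/2Q) and carries S776A as well in S776A double mice (Atxn1 154Q[S776A]/2Q[S776A]). The comparison therefore isolates S776A on the unexpanded allele when the expanded allele already has it. The reference genotypes were 4 SCA1 mice (154Q/2Q, no S776A), 8 WT mice and 4 WT S776A homozygous mice (2Q[S776A]/2Q[S776A]). The expanded and S776A alleles are knock-in alleles. The S776A alleles were made by CRISPR/Cas9 editing in ova and also carry silent base changes beside the serine codon, and the founder line of each mouse is not given in the sources used here.

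Ataxin-1 is a chromatin-associated protein that works in a complex with the transcriptional repressor Capicua, encoded by Cic. Its expanded form causes spinocerebellar ataxia type 1 (SCA1), in which Purkinje cells, the output neurons of the cerebellar cortex, are strongly affected. Phosphorylation of the serine that the study numbers S776 lets 14-3-3 proteins bind ataxin-1 and stabilizes the protein, and alanine at that place cannot be phosphorylated.

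The edited codon is shown because the unexpanded allele of the 2 genotypes differs there, beside the silent changes. It lies in exon 8 of 8 of Atxn1, on the minus strand of chromosome 13 of GRCm38 (gene from 45549755 to 45965008), and is codon 751 of the 791 codons of the longest annotated mouse transcript. The reference coding strand of the window chr13:45557133-45557225, 5′ to 3′, with the serine codon in capitals, reads as follows.
Atxn1: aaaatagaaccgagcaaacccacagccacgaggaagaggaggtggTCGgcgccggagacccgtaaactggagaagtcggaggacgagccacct
This is the unedited sequence. The deposited counts are per gene and do not separate the 2 alleles.

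Between 62163600 and 85575119 fragments were counted on genes in each of the 8 libraries, so 3 counts, taken as the floor of detection, correspond to at most 0.0483 CPM (library-scaled counts). Depth, the mitochondrial share and 4 mapping shares of the genotypes differed with p from 0.229 to 0.771 in exact two-sided permutation tests (adjusted p of at least 0.381 over 8 measures of the libraries; 4 mice against 4 cannot go below 0.0286). Some libraries stood apart. Double mouse 1 was the only one of the 8 with high Xist (830 CPM against 0.116 to 1.04) and without the Y-linked Ddx3y (0.246 CPM against 93.1 to 105), so 1 female was compared with 7 males. Double mice 2 and 3 had clock gene levels unlike the other 6 mice. The clock score, defined below, averaged -1.29 in double and -2.28 in SCA1 S776A mice. Its exact permutation p of 0.0571 was the lowest of the 8 measures, and that of the log2 choroid plexus sum was 0.571. The 16 choroid plexus markers summed to 182 to 203 CPM in double mice 1 and 2 and SCA1 S776A mouse 1, and to 2732 to 5231 CPM in the other 5. All 8 libraries were rich in cerebellar markers, with the granule cell receptor gene Gabra6 at 759 to 900.3 CPM. They belong, with the SCA1 mice and 4 WT mice, to 1 of 2 sequencing batches inferred from mapping shares, since the labels give none. The labels do not say whether mice shared a litter, so p-values measure the spread between these mice.

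No gene passed the test between the genotypes. Of 22502 genes tested with edgeR's quasi-likelihood test in a fit of all 24 mice, 0 (0%) passed a Benjamini-Hochberg adjusted p under 0.01 with an absolute log2 fold change over 0.5, and 0 passed an adjusted p under 0.05 or 0.1. The lowest adjusted p was 0.99997. At an unadjusted p under 0.05, 309 genes (1.37%) were higher and 357 (1.59%) lower in double mice. The 4 and 4 values did not overlap for 344 genes (1.53%) higher and 253 (1.12%) lower in double mice. DESeq2 with the batch as covariate also called 0 genes and left 1 at an adjusted p under 0.05, Xist, which is high in double mouse 1 only.

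How small a difference these data could hold is given by the intervals. The 95% interval of the fold change lay within 0.5 log2 of 0 for 61.3% of all tested genes and for 88.9% of the 14985 genes with a mean of at least 1 CPM, whose median half-width was 0.19. The median log2 fold change over all genes was -0.0037. Taken mouse by mouse over the 14985 genes, a double and an SCA1 S776A mouse differed by a median root-mean-square log2 distance of 0.325 (16 pairs), beside 0.346 between 2 double mice (6 pairs) and 0.312 between 2 SCA1 S776A mice (6 pairs). By this distance, mice of the 2 genotypes were about as far apart as mice of the same genotype. The median absolute log2 difference was 0.117 between genotypes, 0.129 between 2 double mice and 0.098 between 2 SCA1 S776A mice.

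**Figure D1:**
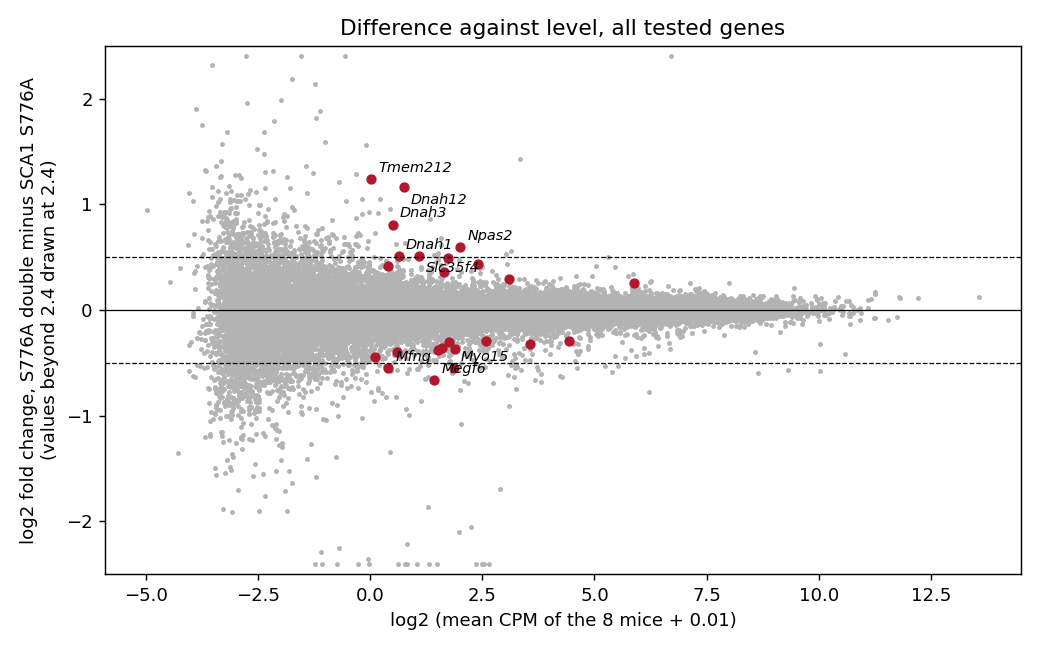
The plot shows, for each tested gene, the log2 fold change of S776A double minus SCA1 S776A mice (vertical axis) against log2 of the mean CPM of the 8 mice plus 0.01 (horizontal axis), with values beyond 2.4 drawn at 2.4. Red points are the 24 genes named by rule, the dashed lines mark 0.5, and 105 of the 14985 genes with a mean of at least 1 CPM lie beyond them.

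Atxn1 mRNA, which the edit leaves in place, was read at 69.5, 65.1, 63.3 and 50.3 CPM in the double mice and at 61.1, 61.97, 55.3 and 67.0 CPM in the SCA1 S776A mice. The groups overlapped throughout. The log2 fold change was 0.017 (95% interval -0.15 to 0.19, unadjusted p = 0.837 by edgeR; exact two-sided permutation p = 0.943), and its sign turned with the mice left out. Atxn1l, the paralog of Atxn1, had a log2 fold change of -0.09 (interval -0.27 to 0.08), and Cic one of -0.10 (interval -0.58 to 0.38), lowest in double mice 2 and 3 (184 and 190 CPM against 215 to 244 in the other 6). Without those 2 mice both differences turned positive, to 0.022 and 0.07. The 15 tested genes of the ATXN1 complex, 0 of which were at an unadjusted p under 0.05, had a median of -0.02.

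The partners of the phosphorylated serine were next. The 7 genes of the 14-3-3 proteins, which bind it, had a median of 0.025, and the intervals of all 7 lay within 0.5 log2 of 0. Ywhab differed by 0.08 and Ywhae by 0.02. Among 12 genes of kinases and phosphatase subunits proposed to act on S776, with a median of 0.029, the catalytic subunits of protein phosphatase 2A stood above the rest. Ppp2cb had 97.3, 103, 105 and 99.0 CPM in double and 95.4, 87.2, 89.95 and 93.0 CPM in SCA1 S776A mice, without overlap, a log2 fold change of 0.14 (interval 0.02 to 0.27). Ppp2ca did not overlap either, at 328 to 346 against 304 to 327 CPM and a log2 fold change of 0.11 (interval -0.04 to 0.25). Ppp2cb was at an unadjusted p under 0.05, and neither gene passed the adjusted test. Over all tested genes, 1.53% were higher without overlap. Of the 17 Capicua targets, with a median of -0.05, Fosl1 alone did not overlap, where 1.12% of all tested genes were lower without overlap. It had 10.4 to 13.4 CPM in double and 14.2 to 17.1 CPM in SCA1 S776A mice (log2 fold change -0.28, interval -0.61 to 0.04). The transcription factors Etv1 and Etv4 differed by 0.02 and -0.09. The list median was 0.0093 without double mice 2 and 3, and Fosl1, Etv1 and Etv4 then differed by -0.17, 0.16 and -0.29.

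The genes that SCA1 mice changed give the scale on which this comparison can be read, since neither SCA1 nor WT mice enter it. In SCA1 against WT, 39 genes (0.173% of 22502) were called, 31 lower and 8 higher in SCA1. Of the 39, 32 were displaced in double mice toward the SCA1 level relative to SCA1 S776A mice, 26 of the 31 and 6 of the 8, beside 60.2% of all tested genes displaced in the direction of their own SCA1 difference. Their median displacement was 0.12 log2, against a median SCA1 difference of 0.76, with a range of -0.14 to 0.55. None passed the adjusted test. Of these, 4 were at an unadjusted p under 0.05, all toward SCA1, where 2.96% of all tested genes were in either direction. For 32 of the 39 the interval lay within 0.5 log2 of 0.

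Mouse by mouse the displacement was uneven. The median of the 39 genes, each signed by its SCA1 direction and taken from the SCA1 S776A mean, was 0.23, 0.11, 0.12 and -0.05 in the 4 double mice and -0.03, 0.06, -0.11 and 0.06 in the 4 SCA1 S776A mice. Double mouse 4 lay within the SCA1 S776A mice and the other 3 above them. The means were 0.10 ± 0.12 (SD, n = 4) and -0.0056 ± 0.081 (SD, n = 4), so the groups overlapped. The 4 SCA1 mice lay at 0.34 to 0.47 and the WT mice of the same batch at -0.47 to -0.38.

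The displacement of the wider set of genes changed with the mice left out. Among the 145 genes at an unadjusted p under 0.001 in SCA1 that were not called, 66.2% were displaced toward SCA1 with all mice, and among the 430 genes between 0.001 and 0.01, 65.8%. Without double mice 2 and 3 the shares were 45.9% and 47.7%, and the share over all tested genes was 49.6% in place of 60.2%. With SCA1 mouse 4, whose clock genes resembled theirs, left out as well, the shares were 57.9% and 54.8%, and 53.8% over all genes. The p ranges were drawn anew in each fit. The 39 called genes kept a median of 0.09 and 29 displaced toward SCA1 without these 2 mice. The median was 0.086 without the female double mouse 1 and stayed between 0.079 and 0.17 when single mice were left out.

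**Figure D2:**
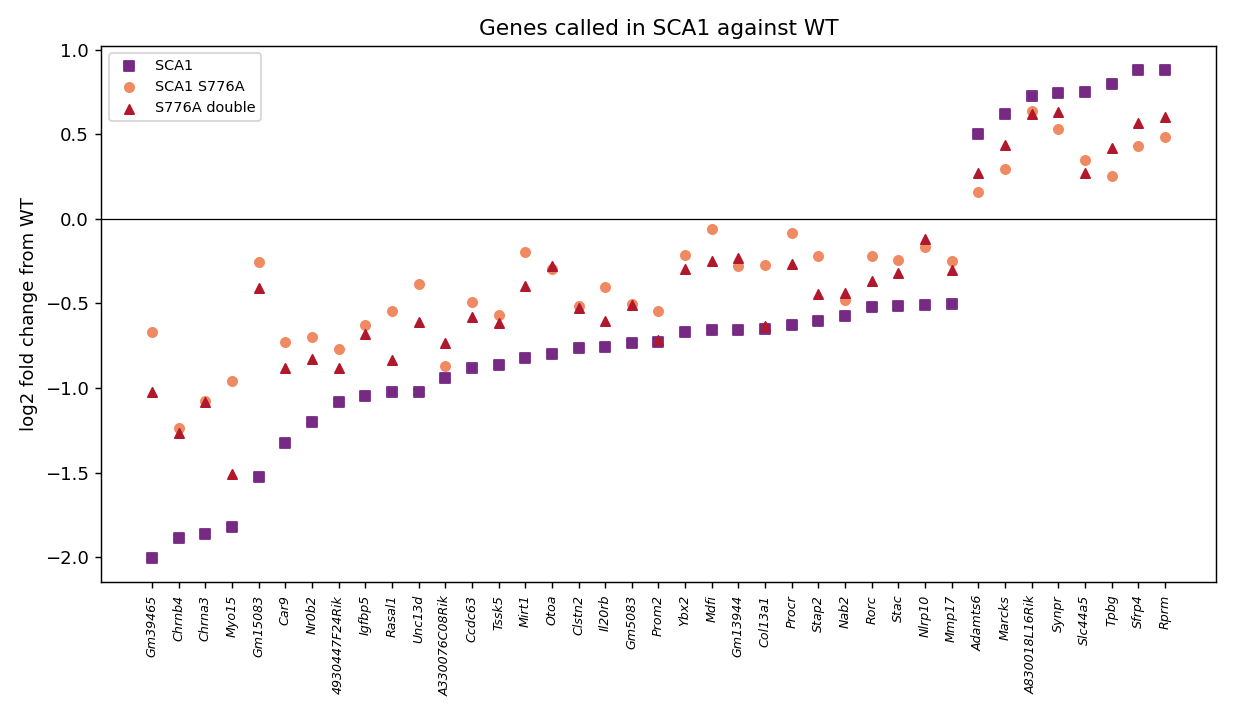
The plot shows the log2 fold change from WT of the 39 genes called in SCA1 against WT, in SCA1 (squares), SCA1 S776A (circles) and S776A double mice (triangles), ordered by the SCA1 value. In 32 of the 39 the triangle lies on the SCA1 side of the circle, with a median gap of 0.12.

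Single SCA1 genes show what this looks like. Myo15, an unconventional myosin known from hair cell stereocilia, lies on chromosome 11 (60469339 to 60528369). It had 3.40, 2.80, 2.30 and 3.22 CPM in double mice and 5.28, 3.87, 3.95 and 4.10 CPM in SCA1 S776A mice, beside 2.11 to 2.84 CPM in SCA1 and 7.30 to 9.88 CPM in WT mice of the same batch. WT mice of the other batch had 1.70 to 2.91 CPM, so its level also differed between the batches. Every double mouse was below every SCA1 S776A mouse. The log2 fold change was -0.55 (standard error 0.17, interval -0.90 to -0.20, adjusted p = 0.99997 by edgeR), and -0.38 without double mice 2 and 3.

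Col13a1, a transmembrane collagen, had 2.89, 2.59, 2.38 and 2.79 CPM in double and 3.62, 3.06, 3.87 and 3.11 CPM in SCA1 S776A mice, also without overlap. The log2 fold change was -0.36 (interval -0.61 to -0.11), and -0.27 without double mice 2 and 3. Il20rb, a cytokine receptor subunit, and Stap2, a signaling adaptor, overlapped narrowly. Il20rb had 42.02, 48.4, 39.1 and 46.7 CPM in double and 50.7, 53.6, 51.8 and 47.0 CPM in SCA1 S776A mice, a log2 fold change of -0.20 (interval -0.37 to -0.04). Stap2 had 25.4, 27.96, 24.6 and 29.4 CPM and 33.2, 32.02, 31.5 and 28.95 CPM, a log2 fold change of -0.23 (interval -0.40 to -0.05).

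Other strongly changed SCA1 genes did not follow. Chrna3, a nicotinic receptor subunit with a log2 fold change of -1.86 in SCA1, had 0.904, 0.865, 0.934 and 0.974 CPM in double and 0.844, 1.16, 0.904 and 0.801 CPM in SCA1 S776A mice, fully overlapping. The log2 fold change was -0.0097 (interval -0.37 to 0.35). Its neighbour Chrnb4 differed by -0.03 and Gm5083 by -0.0035. Igfbp5, a growth factor binding protein, differed by -0.06. The 7 tested genes of the nicotinic receptor list had a median of -0.0097, which is the value of Chrna3, and one of 0.07 without double mice 2 and 3. This list is not a single locus: beside Chrna3 and Chrnb4 it holds other receptor subunits (Chrna4, Chrna6, Chrna7, Chrnb2 and Chrnb3). The lincRNA Gm39465 (log2 fold change -0.36, interval -0.83 to 0.12), Rasal1 (-0.29, interval -0.60 to 0.02) and Unc13d (-0.22, interval -0.47 to 0.02) leaned toward SCA1 with overlapping mice. The remaining genes named for the lowest p in SCA1, the antisense RNA Gm15083 and 4930447F24Rik, differed by -0.15 and -0.12.

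**Figure D3:**
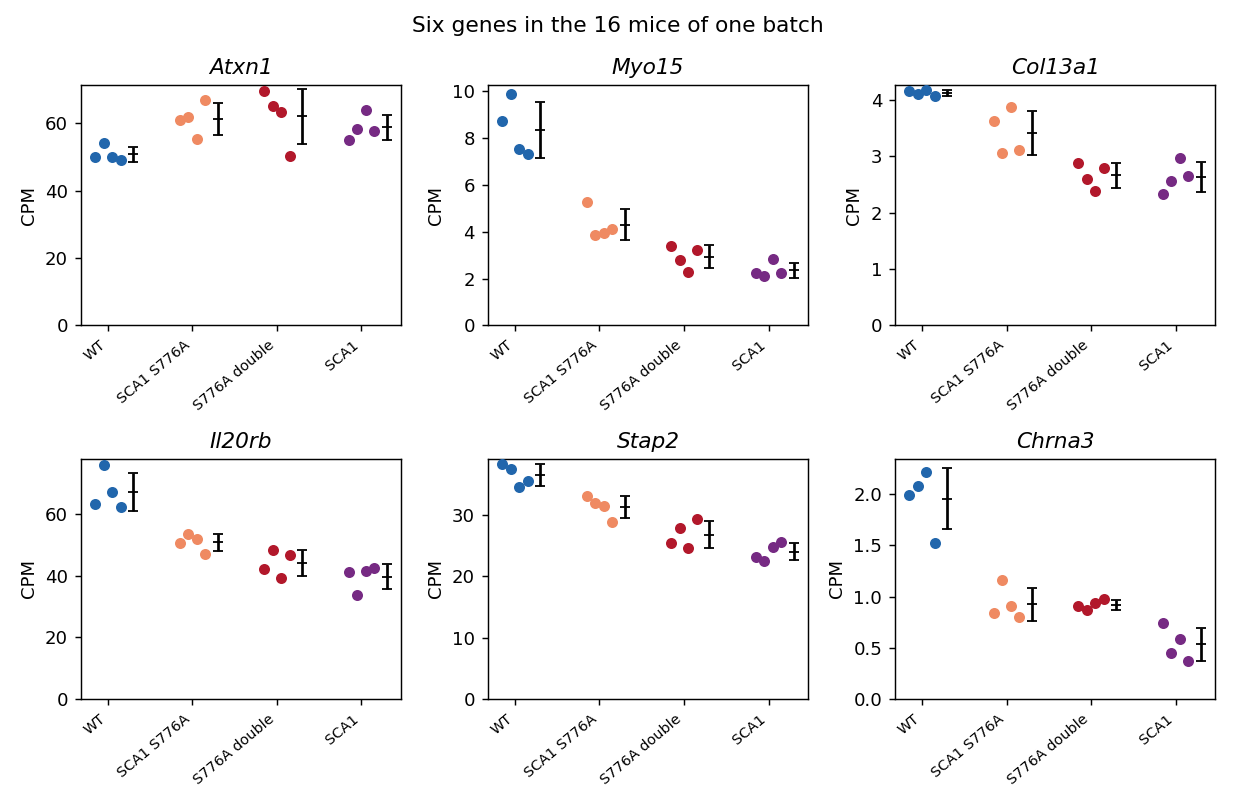
The plots show CPM in each of the 16 mice of the batch (points) with the mean and SD (bar) for Atxn1, Myo15, Col13a1, Il20rb, Stap2 and Chrna3. Double and SCA1 S776A mice are apart only for Myo15 and Col13a1, and Chrna3 is lower in both than the WT mice.

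S776A on unexpanded alleles can also be read in other mice. WT S776A homozygous mice carry it on both unexpanded alleles, where double mice carry it on their only unexpanded allele. The number of edited unexpanded alleles thus differs along with the expanded allele, and these cannot be told apart. The homozygous mice were set against the WT mice of their own batch, so they share no mouse with the comparison above. Of the 666 genes at an unadjusted p under 0.05 in double against SCA1 S776A mice, 63.1% had the same sign in the homozygous mice, near the 62.6% of all 22502 genes. No gene passed the test of the difference between the 2 effects of S776A (0 of 22502, lowest adjusted p = 0.997), and 2.88% of genes were at an unadjusted p under 0.05. Col13a1 differed by -0.35 in the homozygous mice and by -0.36 in the double mice, and Myo15 by -0.41 and -0.55. Myo15 was at 1.18 to 2.10 CPM in the homozygous mice and at 1.70 to 2.91 CPM in the WT mice of their batch. Il20rb and Stap2 differed by 0.16 and 0.15 in the homozygous mice and by -0.20 and -0.23 in the double mice, differences between the effects of -0.37 each (unadjusted p = 0.0032 and 0.0050) that did not pass after adjustment. Of the 39 SCA1 genes, 22 had the SCA1 sign in homozygous mice (56.4%), beside 61.0% of all genes.

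Genes named by rule for the lowest p among those without overlap were led, on the higher side, by Slc35f4, a predicted sugar transporter. It had 2.73, 2.27, 2.43 and 2.49 CPM in double and 1.60, 1.45, 2.11 and 1.79 CPM in SCA1 S776A mice, and all double mice were above all SCA1 S776A mice. The log2 fold change was 0.51 (interval 0.25 to 0.78). Without double mice 2 and 3 it was 0.59.

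Genes of motile cilia followed. The axonemal dynein Dnah3 had 1.77, 1.96, 1.70 and 1.72 CPM in double and 0.699, 1.33, 1.39 and 0.657 CPM in SCA1 S776A mice, a log2 fold change of 0.81 (interval 0.34 to 1.27). Dnah12 and Dnah1 differed by 1.16 and 0.51, and the ependymal gene Tmem212 by 1.24 (1.24 to 1.53 against 0.204 to 0.928 CPM). The family was looked at after these values were seen: of 15 tested Dnah genes, 12 were above 0, 5 were higher at an unadjusted p under 0.05 (beside 1.37% of all tested genes), and the median was 0.17. The 5 include Dnah3, Dnah12 and Dnah1, which prompted the look. SCA1 S776A mice 1 and 4 were the lowest for Dnah3, Dnah12 and Tmem212. The 9 tested ependymal markers had a median of 0.18 and a summed level of 47.5 to 55.6 CPM in double and 34.1 to 56.4 CPM in SCA1 S776A mice. A large part of this sum was Dnah11, at 19.3 to 26.8 CPM in double and 20.5 to 24.7 CPM in SCA1 S776A mice (log2 fold change -0.04). The median of the 9 was 0.07 without double mice 2 and 3, 0.25 without double mouse 1, 0.0027 with the clock score as covariate and 0.52 with the choroid plexus sum as covariate. How far the number of ependymal cells in each piece of tissue contributes was not tested, and fewer cells of a type and less RNA per cell cannot be told apart in bulk tissue.

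The other genes higher in double mice were Slc18a2, the vesicular monoamine transporter (log2 fold change 0.43), Akirin2, a nuclear regulator of transcription (0.26), and the clock gene Npas2, with Gm37459, N4bp2os, Gm42984 and Gm10649 as noncoding genes (0.29 to 0.49). Gm37459 and Gm42984 are antisense, and these unstranded counts cannot separate them from the genes they overlap. The genes lower in double mice included Mfng, a glycosyltransferase of Notch receptors (-0.55), Abcc4, an efflux transporter (-0.32), Ggt1, which cleaves glutathione (-0.40), Mcm3, a replication helicase subunit (-0.30), the ligand gene Wnt9b (-0.38), Dgat2, of triglyceride synthesis (-0.29), Flvcr2 (-0.37), Megf6 (-0.66), the lincRNA Gm12116 (-0.30) and the microRNA gene Mir23b (-0.44). Mir23b (chr13:63300484-63300557) is shorter than the sequenced reads, so its counts may come from a longer transcript and are not a measure of the mature microRNA. For Mfng the double mice had 0.960 to 1.13 CPM and the SCA1 S776A mice 1.19 to 1.93 CPM. These are the extremes of 73 genes that met the rule's conditions, 34 higher and 39 lower, and none passed adjustment.

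Neuronal gene lists lay close to 0. The 19 Purkinje cell identity genes had a median of -0.012, with Calb1, a calcium-binding protein of Purkinje cells, at 1128 to 1212 CPM in double and 1024 to 1166 CPM in SCA1 S776A mice (log2 fold change 0.07, interval -0.09 to 0.23). The exception was Sv2c, a synaptic vesicle protein, at 100.2, 79.3, 78.0 and 78.8 CPM against 71.6, 64.1, 68.9 and 73.3 CPM, without overlap (log2 fold change 0.28, interval 0.02 to 0.53). The female double mouse 1 was the highest, and 1.53% of all tested genes were likewise higher without overlap. For 18 of the 19 the interval lay within 0.5 log2 of 0. The 20 granule cell genes, with a median of -0.0018, all had such intervals, among them Gabra6 (0.05) and Slc17a7 (-0.05).

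Signaling and excitability lists gave the same picture of small values. The 20 Purkinje firing channels had a median of -0.011, the 12 zebrin stripe genes -0.019, the 23 glutamate and GABA receptors 0.0025, the 17 inhibitory interneuron genes -0.06 and the 8 unipolar brush cell genes 0.024. In none of these lists was a gene at an unadjusted p under 0.05. Without double mice 2 and 3 the Purkinje identity, firing channel and interneuron medians were 0.09, 0.08 and 0.05, each on the other side of 0. The receptor and unipolar brush cell medians were 0.07 and 0.12.

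Glia differed as little. The 20 genes of Bergmann glia and astrocytes had a median of 0.025, with Gfap, an intermediate filament that rises in reactive astrocytes, at -0.12 (interval -0.33 to 0.10). The 18 microglia and complement genes had a median of -0.0068 and the 18 oligodendrocyte and myelin genes -0.06, with Mbp at -0.06. The 15 meninges and fibroblast genes had a median of -0.0068 (-0.13 without double mice 2 and 3). The 9 tested genes of brainstem and neighbouring tissue had a median of 0.04 but ranged from -0.74 to 3.76. Of these 9, 2 were higher at an unadjusted p under 0.05, beside 1.37% of all tested genes. Slc18a2, 1 of the 2, did not overlap and was highest in double mouse 1, at 7.43 CPM. Dbh, of noradrenaline synthesis, was at 2.34 CPM in double mouse 1 and at most 0.092 CPM in the other 7 mice.

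**Figure D4:**
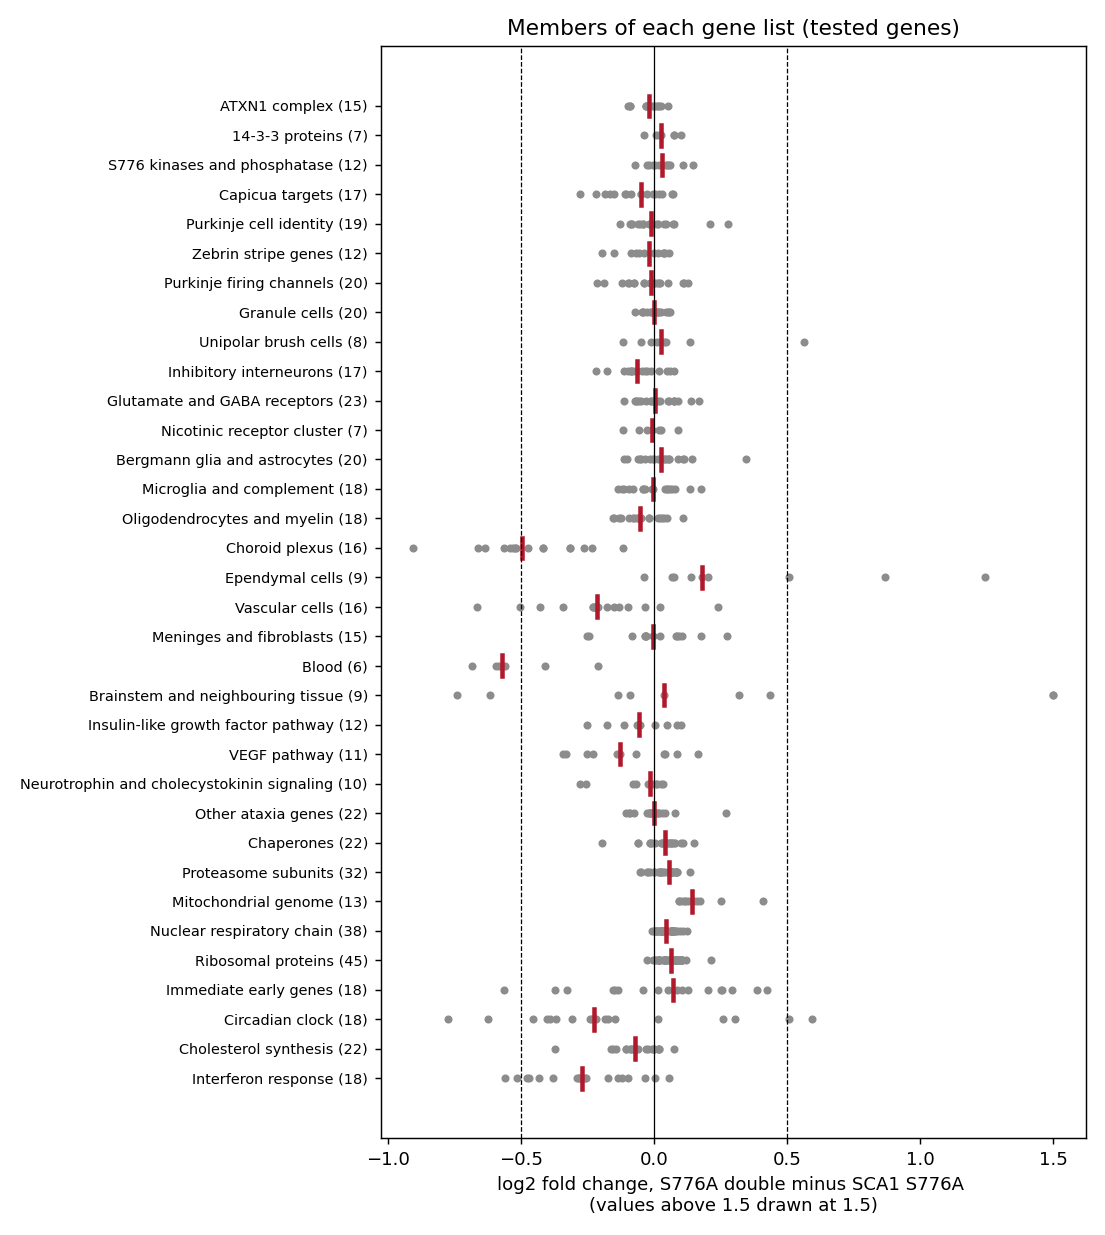
The plot shows the log2 fold change of S776A double minus SCA1 S776A mice for each tested member (grey points, number in brackets) of 34 gene lists, with the list median in red, dashed lines at 0.5, and values above 1.5 drawn at 1.5. The neuronal and glial medians lie near 0, while the choroid plexus (-0.50) and blood (-0.57) medians lie at or beyond the dashed line.

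Larger medians were found for the choroid plexus, blood and vascular lists. The 16 choroid plexus markers had a median of -0.50, 0 were at an unadjusted p under 0.05, and Ttr, its most abundant marker, had 10.6, 8.31, 2880 and 2387 CPM in double and 18.8, 2954, 2484 and 1612 CPM in SCA1 S776A mice. Both groups held mice with high and with low levels of these markers, and the list median was -0.13 without double mouse 1, -0.60 without double mice 2 and 3 and -1.21 with the clock covariate. The 6 blood genes had a median of -0.57, with Hba-a1 at 26.8 to 40.2 CPM in double and 43.6 to 66.5 CPM in SCA1 S776A mice, without overlap, and Hba-a2 at -0.69 (interval -1.30 to -0.07). The 16 vascular genes had a median of -0.22, and 2 of them were above 0. Pecam1 differed by -0.21. Cldn5, 1 of those 2, was at 0.24 with all mice and at -0.24 without double mice 2 and 3, where the list median was -0.30. The 11 VEGF pathway genes had a median of -0.13, with Vegfa at 0.04 and its receptor Flt1 at -0.34.

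The 18 interferon response genes had a median of -0.27, with 16 below 0. None passed the adjusted test, 0 were without overlap, and 3 were lower at an unadjusted p under 0.05 (beside 1.59% of all tested genes). Ifit3 had 15.7, 7.36, 7.63 and 9.02 CPM in double and 10.0, 16.8, 13.3 and 14.9 CPM in SCA1 S776A mice, overlapping (log2 fold change -0.47, interval -0.85 to -0.08). Isg15 and Irf7 differed by -0.52 and -0.56. The median was -0.18 without double mice 2 and 3, and Ifit3, Isg15 and Irf7 then differed by -0.15, -0.33 and -0.59. Double mouse 1 was the highest of the 4 double mice for Ifit3 and Isg15.

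The clock genes stood apart in 2 mice. Npas2, a partner of Arntl in the positive limb of the circadian clock, had 3.97, 5.79, 5.77 and 3.78 CPM in double and 3.55, 3.09, 3.28 and 2.86 CPM in SCA1 S776A mice (log2 fold change 0.59, interval 0.23 to 0.96). Dbp, an output gene of the clock, had 82.3, 33.4, 37.7 and 64.3 CPM in double and 102, 98.2, 73.9 and 99.5 CPM in SCA1 S776A mice (log2 fold change -0.78, interval -1.38 to -0.18). Double mice 2 and 3 were the highest for Npas2 and Arntl and the lowest for Dbp, Per2 and Per3. Over 18 clock genes, 3 were at an unadjusted p under 0.05 on the higher side and 1 on the lower, beside 1.37% and 1.59% of all tested genes, with a median of -0.23. Without double mice 2 and 3 the median was -0.0041 and Dbp and Npas2 differed by -0.35 and 0.28. SCA1 mouse 4 resembled them, with a clock score (mean log2 CPM of 3 positive-limb genes minus that of 5 output and repressor genes) of -0.58, beside -0.48 and -0.60 in double mice 2 and 3 and -2.46 to -1.69 in the other 13 mice of the batch. The time of day of tissue collection is not given in the sources used here, and its part in the result was not tested.

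**Figure D5:**
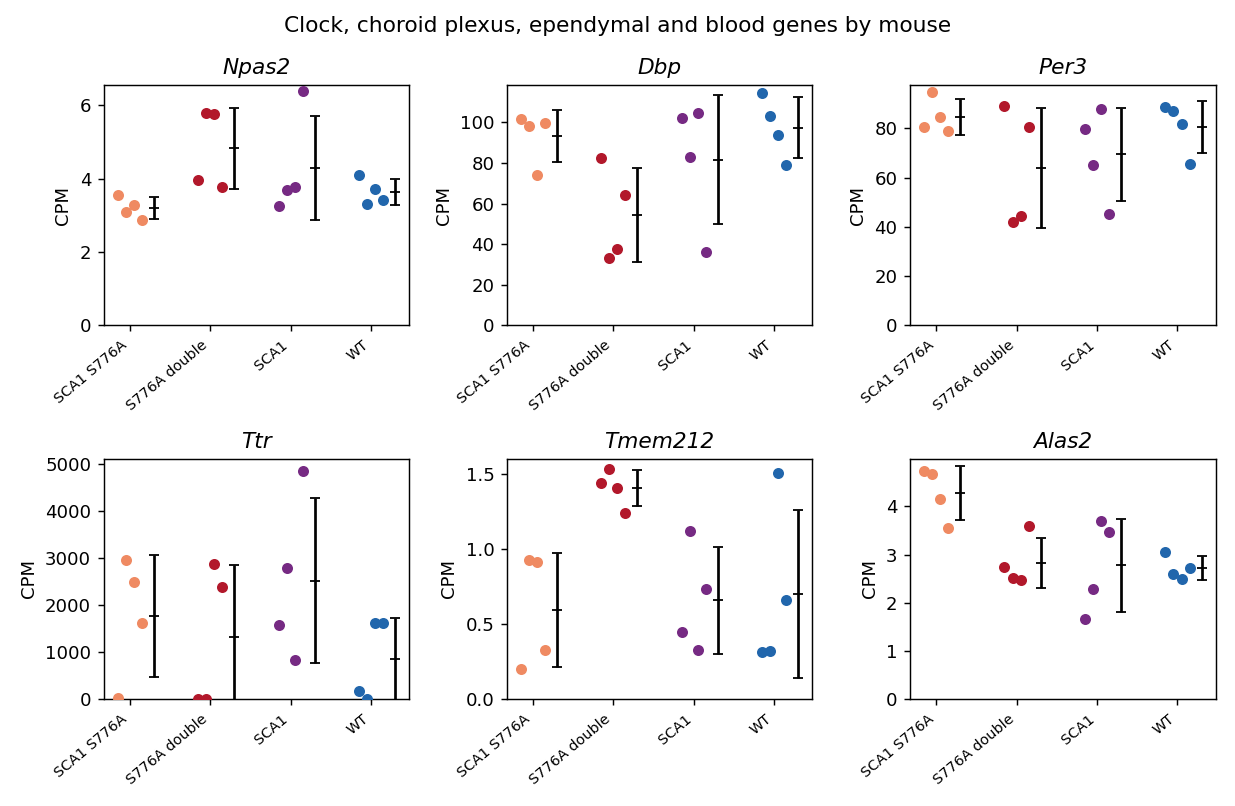
The plots show CPM in each of the 16 mice of the batch (points) with the mean and SD (bar, not drawn below 0) for the clock genes Npas2, Dbp and Per3, the choroid plexus gene Ttr, the ependymal gene Tmem212 and the erythroid gene Alas2. In them 2 double mice and 1 SCA1 mouse stand apart for the clock genes, and Ttr is near 0 in 2 double mice and 1 SCA1 S776A mouse. Low choroid plexus levels were not confined to these 2 genotypes: the lowest marker sum among the WT mice of the batch was 178 CPM.

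The remaining lists concern housekeeping and growth. The 13 genes of the mitochondrial genome were all above 0, with a median of 0.14, and 0 were at an unadjusted p under 0.05. The nuclear respiratory chain genes (38 tested) had a median of 0.04, the ribosomal proteins (45) 0.06, the proteasome subunits (32) 0.05 and the chaperones (22) 0.04. Without double mice 2 and 3 the medians of the respiratory chain, ribosomal and proteasome genes were -0.04, -0.09 and -0.03, so their direction rested on these mice. Cholesterol synthesis (22) had -0.07, immediate early genes (18) 0.07, the insulin-like growth factor pathway (12) -0.06, neurotrophin and cholecystokinin signaling (10) -0.017 and the other ataxia genes (22) -0.0025. Of these 5 lists, without double mice 2 and 3, the immediate early, insulin-like growth factor and other ataxia medians turned to -0.06, 0.016 and 0.06, and the neurotrophin median was -0.12. The immediate early genes ranged from -0.57 to 0.42, and 5 of the 18 had intervals within 0.5 log2 of 0. In that list 1 gene was lower at an unadjusted p under 0.05, beside 1.59% of all tested genes. In it and in the cholesterol list 1 gene each was lower without overlap, beside 1.12%. The 5 sex-linked genes followed the sex of double mouse 1. Over all lists, 15 of 573 tested genes (2.62%) were at an unadjusted p under 0.05, beside 2.96% of all tested genes.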

How the data were processed

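RNA of 24 cerebella was sequenced. The authors trimmed the reads with Trimmomatic 0.36 and aligned them to GRCm38.p6 with STAR 2.7.2d, and deposited whole-number counts of fragments per gene, without normalization. The submitters' notes also name DESeq2 1.28.1. Of 54232 listed genes, 54165 matched the GENCODE M21 annotation and 1 further feature, like 1 of the gene lists, is not reported here. The unstranded counts were used.

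The labels name no sequencing batch. K-means on 4 mapping shares (mean silhouette 0.634) split the libraries into 16 and 8, with all 8 compared mice in the larger part. WT is the only genotype in both, so each genotype was in effect set against WT mice of its own part.

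In R 4.3.3, counts were scaled by TMM and fitted with edgeR 4.0.16 (robust quasi-likelihood, genotype and batch, 22502 genes kept by its expression filter). CPM are library-scaled counts, log2 CPM used a prior count of 2, and the biological coefficient of variation was 12.9%. Same-genotype mice differed beyond counting error (chi-square over its degrees of freedom, 13.9 to 62.6), so none were counted as duplicates. Intervals are 95% intervals. Beside Atxn1, Atxn1l and Cic, the named genes were up to 12 per direction with the lowest p among those of at least 1 CPM, an absolute log2 fold change over 0.25 and no overlap, 6 SCA1 genes with the lowest p and 6 with the largest difference, and in each list examples from its first 2 members and the 2 lowest p. Igfbp5, Chrnb4, Dbp, Per2, Per3, Irf7, Alas2 and the Dnah family were named after their values were seen. The members and the 36 lists were chosen with earlier results of these data known. The fit was tested on simulated data. Alternatives were DESeq2 1.42.0, ComBat-seq of sva 3.50.0, limma 3.58.1, other scalings, filters, strands, covariates and sets of mice. Those on clock and choroid plexus genes and on double mice 2 and 3 were chosen after seeing the data.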

Additional observations from a re-analysis of the deposited data

Results flagged for a closer look

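In 88 groups of 4 mice examined, over the named genes, measures of the libraries and the SCA1 gene median, 2 held a mouse far from the other 3 by Dixon's ratio of the gap to the range, where chance gives about 1 in 20. Slc18a2 in SCA1 S776A mice had a ratio of 0.876, with mouse 4 at a log2 CPM of 2.30 and the other 3 between 2.12 and 2.14. Gm42984 in SCA1 S776A mice had a ratio of 0.892, with mouse 4 at a log2 CPM of 0.82 and the other 3 between 1.60 and 1.69.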

How the results depend on the processing

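No alternative called a gene in S776A double against SCA1 S776A mice. The number at an unadjusted p under 0.05 changed more. On the higher and lower side it was 191 and 192 without a batch term, 541 and 645 without a filter, and 154 and 185 at a mean of at least 1 CPM. It was 503 higher with only the 16 mice of the batch, and 579 lower without double mice 2 and 3 and SCA1 mouse 4. Leaving out single mice gave 217 to 464 higher and 256 to 552 lower, the most without double mouse 1. List members at that p, 15 in all, were 25 with the 8 compared mice only, 33 with the 16, 23 by DESeq2, 30 with a choroid plexus and 30 with a clock covariate, 25 without double mice 2 and 3 and SCA1 mouse 4, and 10 to 40 with single mice left out. The Atxn1 difference ranged from -0.046 to 0.10 with single mice left out, and was -0.029 with Xist as covariate, -0.033 without double mice 2 and 3, -0.045 without SCA1 mouse 4 as well, and -0.019 with the choroid plexus covariate.

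ComBat-seq then DESeq2 called 1 gene for the difference between the effects of S776A, Gm43804, a gene at under 0.2 CPM in each of the 16 mice compared. The SCA1 gene median stayed between 0.079 and 0.17, and 29 to 32 genes were displaced toward SCA1, with single mice left out. Selected on SCA1 and WT mice of the batch alone, 68 genes had a median of 0.10.

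Among named genes close to 0, signs turned. Chrna3 was 0.12 on one strand, 0.0067 by limma, 0.021 without double mice 2 and 3, 0.0099 without SCA1 mouse 4 as well and 0.21 with the clock covariate, and ranged from -0.077 to 0.11 with single mice left out. Gm5083 was 0.037 on one strand, 0.0079 with Xist, 0.037 and 0.025 without those mice and 0.0097 with the clock covariate, and ranged from -0.041 to 0.036 with single mice left out. Gm15083 was 0.049 on the other strand. The libraries are unstranded, with a ratio of 0.9995 to 1.004 between the total counts of the strands, so these values are not strand-specific. Atxn1l and Cic were 0.022 and 0.068 without double mice 2 and 3, 0.010 and 0.056 without SCA1 mouse 4 as well, and 0.037 and 0.14 with the clock covariate. The cause was not tested. No paired analysis was possible because the labels number no mice in a way that the genotypes share. With 4 mice a group, differences under about 0.19 log2 could not be told from 0 for a typical gene even before adjustment. This is the median half-width of the unadjusted intervals at 1 CPM or more. The adjusted test needed larger differences, and Tmem212, at 1.24 log2, did not pass it.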
